A study of Arabidopsis thaliana with 12 samples.

Results

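The genes compared here were those that reached at least 5 FPKM in wild-type main inflorescences or in day-0 apices of Arabidopsis thaliana. FPKM is the number of sequenced fragments of a gene, set against the length of its transcript and the mapped fragments of its library. Of 33559 gene identifiers, 17247 met this minimum. The apices came from plants carrying the mutations ap1-1 and cal-1 and the transgene 35S::AP1-GR, in the Landsberg erecta (Ler) background, and were taken before any treatment (day 0). In this line APETALA1, a regulator of floral fate, is made from the broadly active 35S promoter and fused to a piece of the glucocorticoid receptor, so that it stays inactive until dexamethasone is given. The inflorescences came from untreated wild-type Ler plants. Whole main inflorescences were taken and flowers older than stage 12 were removed, so buds of many ages, the apex and stem tissue were in the sample, whereas the apices were dissected to keep leaf and pedicel tissue low. The other groups of the study, used here for context, were apices of that line taken at 2 days after a treatment with 10 µM dexamethasone (day 2) and rosette leaves of flowering wild-type plants. All plants were grown in long days, first on medium and then in soil with vermiculite. Each group had 3 libraries of stranded, poly(A)-selected RNA, and the deposited table held 1 merged value per gene and group. Genotype, stage and dissection therefore differed together between the groups and cannot be told apart.

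In a plant without working AP1 and CAULIFLOWER (CAL), meristems that would become flowers keep making further meristems, and the apex grows into a cauliflower-like head. A wild-type inflorescence holds a small apex and a series of buds. In these buds floral meristem genes switch on organ identity genes, organs form, and in the anther the tapetum, the layer that feeds pollen, makes the outer pollen wall and the oily pollen coat. The comparison therefore sets a tissue rich in young meristems beside flowers of many ages.

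Levels are given in FPKM. Differences are log2(FPKM + 1) in inflorescences minus log2(FPKM + 1) at day 0, a scale that understates the difference of genes with low levels. Genes with a difference of at least 1 in size, 2-fold on that scale, were called higher or lower. With 1 merged value per group there is no standard deviation, no test and no p-value, and the calls describe these libraries. A ratio of the FPKM values themselves, written as "fold", is given only where the lower value was at least 0.5 FPKM. In whole tissue, more cells of a type and more RNA per cell cannot be told apart.

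By this rule 2796 of the 17247 genes were higher in inflorescences, 16.2% of the genes compared, and 884 were lower, 5.13%. The difference of 57.0% of the genes lay within 0.5 of zero. The median difference was -0.04, the 5th percentile was -1.01 and the 95th percentile was 3.13. At a 4-fold limit 1616 genes were higher (9.37%) and 208 were lower (1.21%). At a 16-fold limit the numbers were 508 (2.95%) and 32 (0.186%), and at a 64-fold limit 129 (0.748%) and 4 (0.0232%). A gene that met the minimum in 1 column only was likely to differ by construction. Among the 14373 genes at 5 FPKM or more in both columns, 907 were higher (6.31%) and 571 were lower (3.97%). The other 1889 higher genes were under 5 FPKM at day 0, and the other 313 lower genes were under 5 FPKM in inflorescences.

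**Figure D1:**
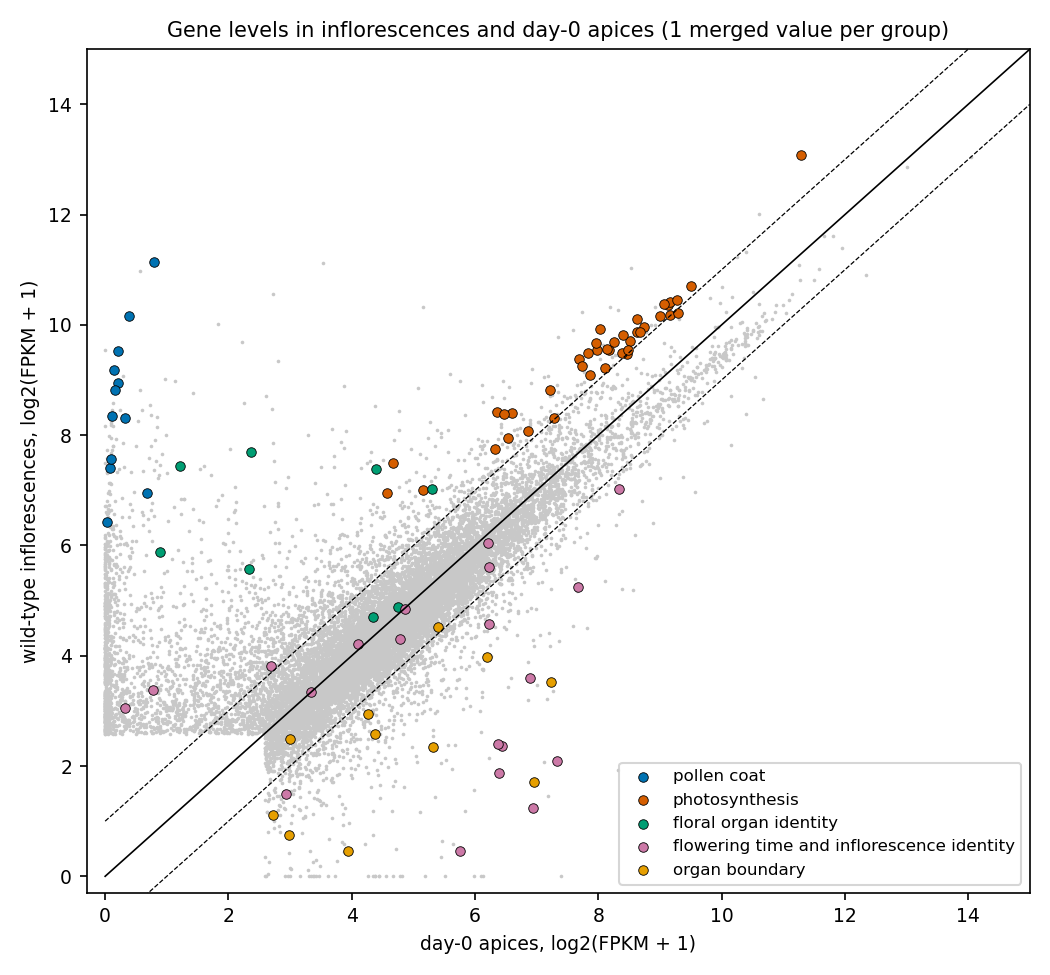
Each point is 1 of the 17247 genes, with its level in day-0 apices (x axis) and in wild-type inflorescences (y axis), both as log2(FPKM + 1). The solid line marks equal levels and the dashed lines the 2-fold rule. Pollen coat genes lie at the left edge, near zero at day 0, photosynthesis genes run parallel to the line above it, and most flowering time genes and organ boundary genes lie below it.

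The FPKM sums were 900514 at day 0 and 925754 in inflorescences, and 18226 and 21018 genes reached 1 FPKM. Numbers of reads per library were not used here, so the depth behind each value is unknown. When both columns were rescaled to the same upper quartile of genes above 0, every difference shifted by 0.16 on the log2 scale towards higher in inflorescences, and the median of all genes became 0.11. The tissue labels were checked against defining genes. The meristem gene STM was high in both apex groups and near zero in leaves. Of the 19 shoot meristem genes, however, 8 reached 5 FPKM in leaves. Pollen genes were high in inflorescences alone, and photosynthesis genes apart from RBCS1A were highest in leaves. Of 9 genes used as references in this species, none was called in either direction. PP2AA3, a phosphatase subunit, stood at 40.3 FPKM at day 0 and 38.2 FPKM in inflorescences, and SAND at 31.5 and 32.3 FPKM. ACT2, an actin, was 121 and 196 FPKM, a ratio of 1.62.

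The genes altered in the apex line were examined before the rest. In day-0 apices AP1 (AT1G69120) reached 659 FPKM, with 813 FPKM at day 2, 151 FPKM in inflorescences and 0.429 FPKM in leaves. Reads of the transgene and of the mutated gene cannot be separated in this value, so the 4.37-fold higher level at day 0 does not describe the native gene. CAL (AT1G26310) was 8.21 FPKM in inflorescences, 16.8 FPKM at day 0 and 14.6 FPKM at day 2, and it was listed at 0 in leaves. Its difference of -0.95 was just short of the rule, so a transcript of the mutated gene was present at day 0.

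Genes that set flowering time and keep the inflorescence apex indeterminate were called more often lower than higher in inflorescences. Of 25 such genes 20 met the minimum, 11 were lower in inflorescences, 3 were higher and 6 were not called, with a median difference of -1.37. With no minimum the median over all 25 genes was -0.49, short of the 2-fold rule. TERMINAL FLOWER 1 (TFL1), which holds the apex in an inflorescence state and keeps LFY and AP1 out of it, was 82.4 FPKM at day 0, 13.7 FPKM at day 2, 2.65 FPKM in inflorescences and 2.31 FPKM in leaves. FD, the bZIP partner of the flowering signal FT, was 159.9 FPKM at day 0, 65.7 FPKM at day 2 and 3.28 FPKM in inflorescences, a 48.7-fold difference. Its relative FDP was 86.0 FPKM at day 0, 36.4 FPKM at day 2 and 4.18 FPKM in inflorescences. For all 3 of these genes the inflorescence value was the lower of the pair by more than 20-fold, with day 2 in between.

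The MADS-box genes SOC1, SVP, AGL71 and AGL72 were lower in inflorescences but differed in leaves. SOC1, a promoter of flowering, stood at 203 FPKM at day 0, 135 FPKM at day 2, 37.2 FPKM in inflorescences and 207 FPKM in leaves. SVP, a repressor of flowering that also acts in young floral meristems, was 81.9, 41.3, 4.29 and 85.7 FPKM in the same order. For both genes leaves lay close to day 0, and inflorescences were lowest. Their relatives AGL71 and AGL72 were low in leaves as well. AGL71 was 122 FPKM at day 0, 79.2 FPKM at day 2, 1.35 FPKM in inflorescences and 1.49 FPKM in leaves, a 90.3-fold difference between the groups compared. AGL72 was 52.9, 32.2, 0.370 and 0.0883 FPKM. The SPL genes, targets of the ageing microRNA miR156, were mostly not called. SPL9 stood at 72.9 FPKM at day 0 and 65.2 FPKM in inflorescences, and SPL3 at 28.0 and 27.7 FPKM.

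The 3 genes higher in inflorescences had other levels in leaves. FT, the mobile flowering signal made in leaf veins, was 0.713 FPKM at day 0, 4.75 FPKM at day 2, 9.45 FPKM in inflorescences and 41.1 FPKM in leaves. FLC, a repressor of FT and SOC1, was 0.244 FPKM at day 0 and 7.31 FPKM in inflorescences, and under 0.5 FPKM at day 2 and in leaves. TOE3, an AP2-type repressor, was 5.46 and 13.0 FPKM.

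Floral meristem identity genes, which commit new primordia to a floral fate, were lower in inflorescences in 7 of 10 cases, and none was higher. Over all genes 5.13% were lower. The 7 include AP1, whose day-0 reads cannot be separated from those of the transgene. LEAFY (LFY), the master regulator of floral fate, was 45.2 FPKM at day 0, 158 FPKM at day 2, 3.31 FPKM in inflorescences and 0.208 FPKM in leaves. UFO, the F-box partner of LFY, was 19.4, 64.1, 0.673 and 0.0222 FPKM. Both genes were thus highest at day 2 and lower in inflorescences than in either apex group, 13.7-fold and 28.8-fold below day 0. FUL, which acts with AP1 and CAL, was 193 FPKM at day 0, 127 FPKM at day 2, 65.4 FPKM in inflorescences and 88.6 FPKM in leaves. BOP2, a co-regulator at the base of lateral organs, was 28.0 and 5.79 FPKM in the groups compared. LMI1, a target of LFY, was not called, at 8.46 and 6.95 FPKM. SEP4, a cofactor of AP1, was 32.6 and 16.5 FPKM, just short of the rule.

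Genes that maintain the shoot meristem followed the same direction. Of 19 genes, all of which met the minimum, 11 were lower in inflorescences (57.9%), 1 was higher (5.26%) and 7 were not called. Their median was -1.49, and the shares over all genes were 5.13% lower and 16.2% higher. The KNOX homeobox gene STM, needed to keep meristem cells undifferentiated, was 195 FPKM at day 0, 217 FPKM at day 2, 41.2 FPKM in inflorescences and 0.159 FPKM in leaves. KNAT1 was 103, 128, 27.1 and 0.236 FPKM, and PNF, a homeobox partner of the KNOX proteins, was 39.1, 41.2, 4.86 and 1.98 FPKM. The apex groups lay close together for these genes, inflorescences were 3.79-fold to 8.04-fold below day 0, and leaves were lowest. In the CLAVATA pathway, which limits stem cell number, the ligand differed more between the groups than the receptors did. The ligand CLV3 was 8.80 FPKM at day 0, 9.14 FPKM at day 2, 0.0768 FPKM in inflorescences and 0.0772 FPKM in leaves. The receptor CLV1 was 26.8 and 13.3 FPKM in the groups compared, and BAM2, a related receptor kinase, was 16.4 and 22.0 FPKM, neither of them called. BAM1, another related receptor kinase, was called lower, at 121 and 55.7 FPKM. WUS, the stem cell factor that CLV3 restrains, was the only meristem gene called higher, at 6.91 FPKM at day 0, 13.4 FPKM at day 2 and 17.8 FPKM in inflorescences, and it was listed at 0 in leaves.

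Organ boundary genes, which separate organs from the meristem, had the lowest median of the 29 gene lists. Their median was -2.22, 9 of 11 were lower, and none was higher, against 5.13% lower over all genes. The NAC factor CUC3 was 38.8 FPKM at day 0, 36.7 FPKM at day 2 and 0.0671 FPKM in leaves, and it was 9.46-fold lower in inflorescences than at day 0. CUC1 and CUC2, its relatives, were 3.96-fold and 2.71-fold lower in inflorescences than at day 0. LSH1, of the ALOG family, was 123 FPKM at day 0, 7.58 FPKM at day 2, 2.26 FPKM in inflorescences and 3.43 FPKM in leaves. Its relative LSH3 was 149.6, 54.5, 10.5 and 3.19 FPKM. CUC3 was level between day 0 and day 2, whereas LSH1 was high at day 0 alone. RAX1, a MYB factor of axillary meristems, was 14.3 and 0.381 FPKM in the groups compared, and LAS, a GRAS factor of the same process, was 6.93 and 0.685 FPKM.

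Genes of organ initiation and polarity were called in both directions. Of 22 genes 10 were lower (45.5%), 3 were higher (13.6%) and 9 were not called, beside 5.13% lower and 16.2% higher over all genes. Among AP2-domain genes of organ growth and initiation, DRNL, an early mark of organ founder cells, was 12.6 FPKM at day 0, 39.3 FPKM at day 2 and 0.205 FPKM in inflorescences, and AIL6, a growth factor gene related to ANT, was 31.8, 55.9 and 6.10 FPKM. ANT itself, a promoter of organ growth, was 110.5 and 46.5 FPKM in the groups compared, whereas AIL5 of the same family was not called, at 10.5 and 8.21 FPKM. Polarity genes were found among the lower, the higher and the uncalled genes. ETT, an auxin response factor of the lower side, was lower, at 141 and 45.9 FPKM. The HD-ZIP III factors PHB and REV, which set the upper side, were not called, at 39.8 and 26.4 FPKM and at 57.3 and 29.0 FPKM. AS2, which acts with AS1 on the upper side, was higher in inflorescences, at 19.0 FPKM against 2.94 FPKM. KAN3, of the lower-side KANADI family, was 8.75 FPKM against 2.18 FPKM. Under the upper-quartile rescaling 7 of the 22 genes were lower.

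The floral organ identity genes lay in the opposite direction. Of 8 genes 6 were higher in inflorescences and 2 were not called, with a median of 3.12. AP3 and PI encode the partners of the B-class dimer that specifies petals and stamens. AP3 was 1.31 FPKM at day 0, 202 FPKM at day 2, 173 FPKM in inflorescences and 0.170 FPKM in leaves, a 132-fold difference between the groups compared. PI was 20.0, 107, 166 and 0.123 FPKM, 8.31-fold higher in inflorescences. AP3 was thus near zero at day 0 whereas PI already stood at 20.0 FPKM.

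AG, the C-class gene of stamens and carpels, was 0.849 FPKM at day 0, 16.9 FPKM at day 2, 58.3 FPKM in inflorescences and 1.59 FPKM in leaves. The SEP genes encode cofactors shared by the organ identity classes. SEP3 was 4.14 FPKM at day 0, 65.2 FPKM at day 2 and 207 FPKM in inflorescences. SEP1 was 4.02, 13.6 and 46.6 FPKM, and SEP2 was 38.3, 83.2 and 129.6 FPKM. Inflorescences were highest and day 0 was lowest among the flower-forming groups for AG, PI and these 3 SEP genes. AP2, an A-class gene controlled by miR172, was not called, at 19.4 FPKM at day 0 and 25.0 FPKM in inflorescences, with 63.2 FPKM at day 2. AGL6, related to the SEP genes, was 25.8 and 28.5 FPKM.

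**Figure D2:**
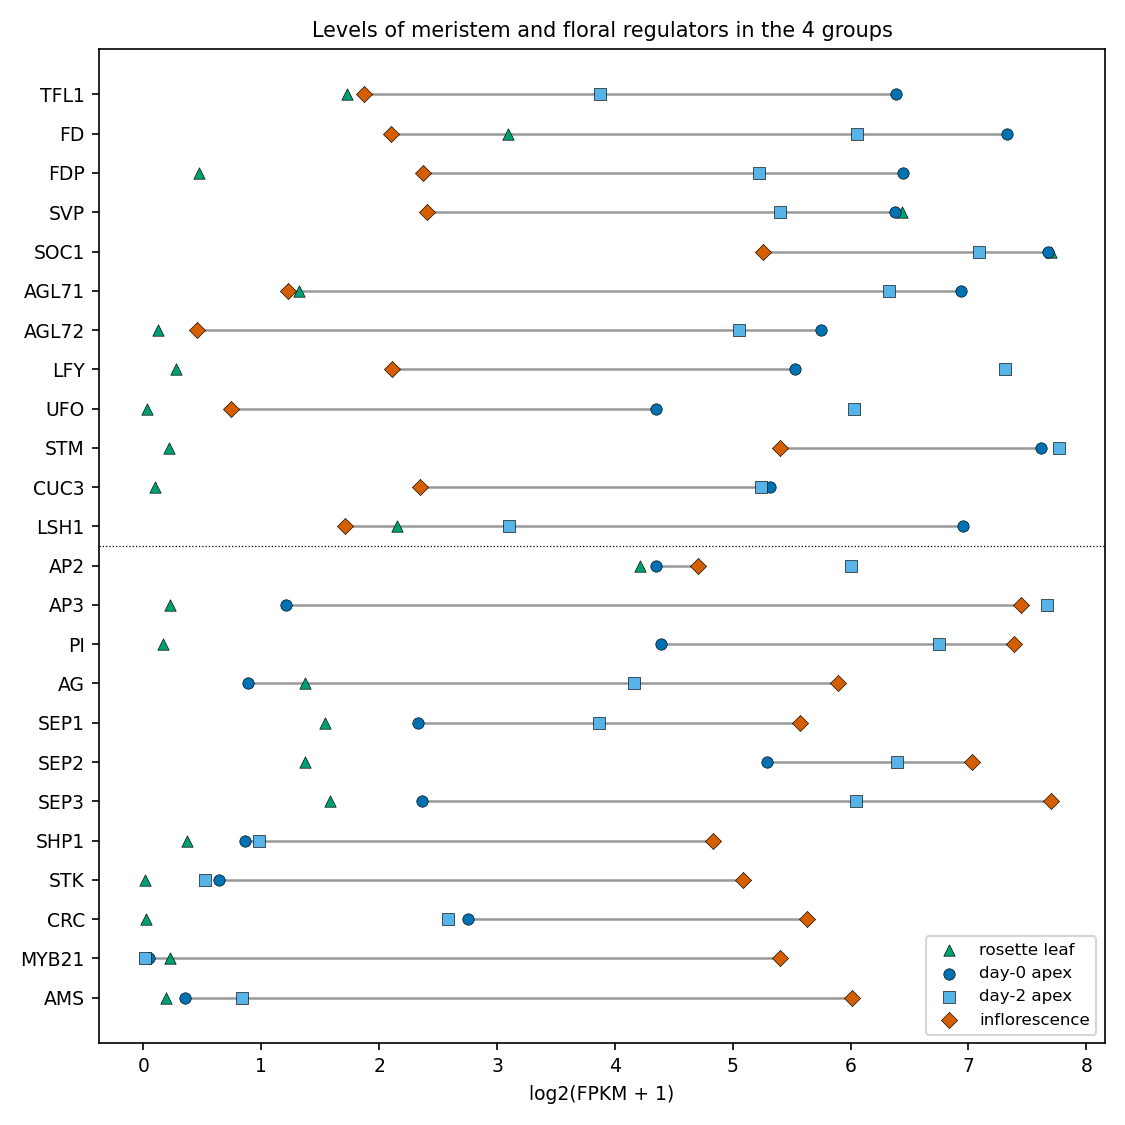
Levels of 24 regulators as log2(FPKM + 1) in rosette leaves (triangles), day-0 apices (circles), day-2 apices (squares) and inflorescences (diamonds), each marker being 1 merged value. Grey lines join the groups compared. Above the dotted line are flowering time, meristem and boundary genes, whose inflorescence values lie left of day 0. Below it are organ identity and later floral genes, whose inflorescence values lie right of day 0, AP2 by 0.35 only.

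Carpel and ovule genes were called in both directions. Of 20 genes 15 met the minimum, 9 were higher, 4 were lower and 2 were not called. Over all genes 16.2% were higher and 5.13% were lower. Of the 15 genes, 7 reached 5 FPKM at day 0, and the others met the minimum through inflorescences alone. Those others were all called higher, which was likely by construction. Among the higher genes only CRC reached 5 FPKM at day 0. The MADS-box genes of fruit valve margins and ovules were near zero in both apex groups. SHP1 was 0.812 FPKM at day 0, 0.975 FPKM at day 2 and 27.5 FPKM in inflorescences. STK, which specifies ovules, was 0.558, 0.433 and 32.9 FPKM. CRC, a YABBY gene of carpels and nectaries, was 48.6 FPKM in inflorescences and was already present in the apices, at 5.73 FPKM (day 0) and 4.99 FPKM (day 2). NGA1, a style gene, was 0.535 and 11.8 FPKM in the groups compared. The bHLH genes SPT and ALC, which pattern the carpel margin and the fruit opening, were lower in inflorescences. SPT was 44.5 FPKM at day 0, 62.0 FPKM at day 2 and 16.2 FPKM in inflorescences, and ALC was 158, 171 and 64.5 FPKM. STY2, a regulator of style tissue and auxin synthesis, was 24.4 and 5.29 FPKM in the groups compared.

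Among genes of petal and stamen growth 8 of 15 met the minimum, 6 were higher and 2 were not called, with a median of 2.11 (1.11 over all 15). Of the 8 genes, 3 reached 5 FPKM at day 0, and the others met the minimum through inflorescences alone. MYB21 and MYB24, which drive late stamen growth downstream of jasmonate, were 41.3 and 16.4 FPKM in inflorescences and under 0.05 FPKM in both apex groups. TCP4, which ends cell division in petals and leaves, was 2.39 FPKM at day 0, 2.71 FPKM at day 2, 23.2 FPKM in inflorescences and 25.6 FPKM in leaves. JAG, a growth promoter of lateral organs, was 0.243, 6.57, 5.58 and 0.0596 FPKM. JAG therefore matched between day 2 and inflorescences, whereas MYB21 and MYB24 were present in inflorescences alone among the 4 groups at 1 FPKM or more. The auxin response factors ARF6 and ARF8, which act above MYB21 and MYB24, were not called, at 95.7 and 69.8 FPKM and at 60.5 and 67.1 FPKM.

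The genes of the anther and of pollen held the largest differences. Of the 10 anther and tapetum regulators that met the minimum, 5 were higher (50.0%), beside 16.2% of all genes, and 5 were not called. The 5 higher genes were under 1 FPKM at day 0 and met the minimum through inflorescences alone. They were likely to be called higher by construction, whereas the 5 genes not called reached 5 FPKM at day 0. The higher genes were transcription factors. SPL (SPOROCYTELESS), which starts the pollen-forming cells, was 0.0495 FPKM at day 0, 0.0692 FPKM at day 2 and 12.4 FPKM in inflorescences. AMS, a bHLH factor of the tapetum, was 0.273, 0.784 and 63.7 FPKM, and MS1, a PHD-finger factor of the late tapetum, was 0.00997, 0.0151 and 9.50 FPKM. The genes not called encoded receptor kinases and a ligand that act in many tissues or at an earlier step. EMS1, the receptor that specifies the tapetum, was 11.6 and 16.3 FPKM, and its ligand TPD1 was 12.0 and 9.61 FPKM with 40.1 FPKM in leaves.

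All 14 pollen wall genes that met the minimum, of 15 matched, were higher, beside 16.2% of all genes. Their median difference was 4.87 (4.14 over the 15 with no minimum). ACOS5, which activates fatty acids for sporopollenin, the polymer of the outer pollen wall, was 0.532 FPKM at day 0, 0.967 FPKM at day 2, 162 FPKM in inflorescences and 0.0476 FPKM in leaves. LAP5, a polyketide synthase of the same route, was 0.851, 0.973, 176 and 0.303 FPKM. The cytochrome P450 genes CYP703A2 and CYP704B1, which hydroxylate fatty acids of the polymer, were 64.2 and 69.3 FPKM in inflorescences and at most 0.334 FPKM in both apex groups. Of the 14 genes, 11 were under 1 FPKM at day 0 and 11 at day 2. Only 2 reached 5 FPKM at day 0, and the others met the minimum through inflorescences alone.

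The pollen coat genes stood further apart than any other list. All 12 matched genes were higher, beside 16.2% of all genes, with differences from 6.27 to 10.35 and a median of 8.44. None of them reached 5 FPKM at day 0, so all met the minimum through inflorescences alone. They were likely to be called higher by construction. Their FPKM summed to 2.64 at day 0, 1.33 at day 2, 3.75 in leaves and 6863 in inflorescences. GRP19 and GRP17 encode glycine-rich proteins with an oleosin-like domain that coat the grain. GRP19 was 0.729 FPKM at day 0, 0.0196 FPKM at day 2, 2260.2 FPKM in inflorescences and 1.37 FPKM in leaves, and it was among the 10 highest genes of the inflorescence column. GRP17 was 0.155 FPKM at day 0 and 738 FPKM in inflorescences, and it was listed at 0 at day 2. LTP12, a lipid transfer protein of the tapetum, was 0.305 and 1138 FPKM in the groups compared. EXL4, an extracellular lipase of the coat, was 0.123 and 449.5 FPKM. Reads of near-identical copies can be divided between them, so single values of the glycine-rich protein genes are uncertain.

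Genes of the pollen grain and tube were higher in 15 of the 16 cases that met the minimum, beside 16.2% of all genes. None of the 16 reached 5 FPKM at day 0. All met the minimum through inflorescences alone and were likely to be called higher by construction. VGD1, a pectin methylesterase of the growing tube, was 0.0697 FPKM at day 0, 291 FPKM in inflorescences and 1.46 FPKM in leaves, and it was listed at 0 at day 2. PPME1, another pollen pectin methylesterase, was 0.0196, 212 and 0.208 FPKM in day 0, inflorescences and leaves. AGP23, an arabinogalactan protein of pollen, was 0.224, 538 and 3.79 FPKM. ANX1, a receptor kinase that keeps the tube intact, was not called, at 3.48 and 5.35 FPKM. With no minimum, the median of the 23 matched genes was 3.57, against 5.48 for the 16.

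**Figure D3:**
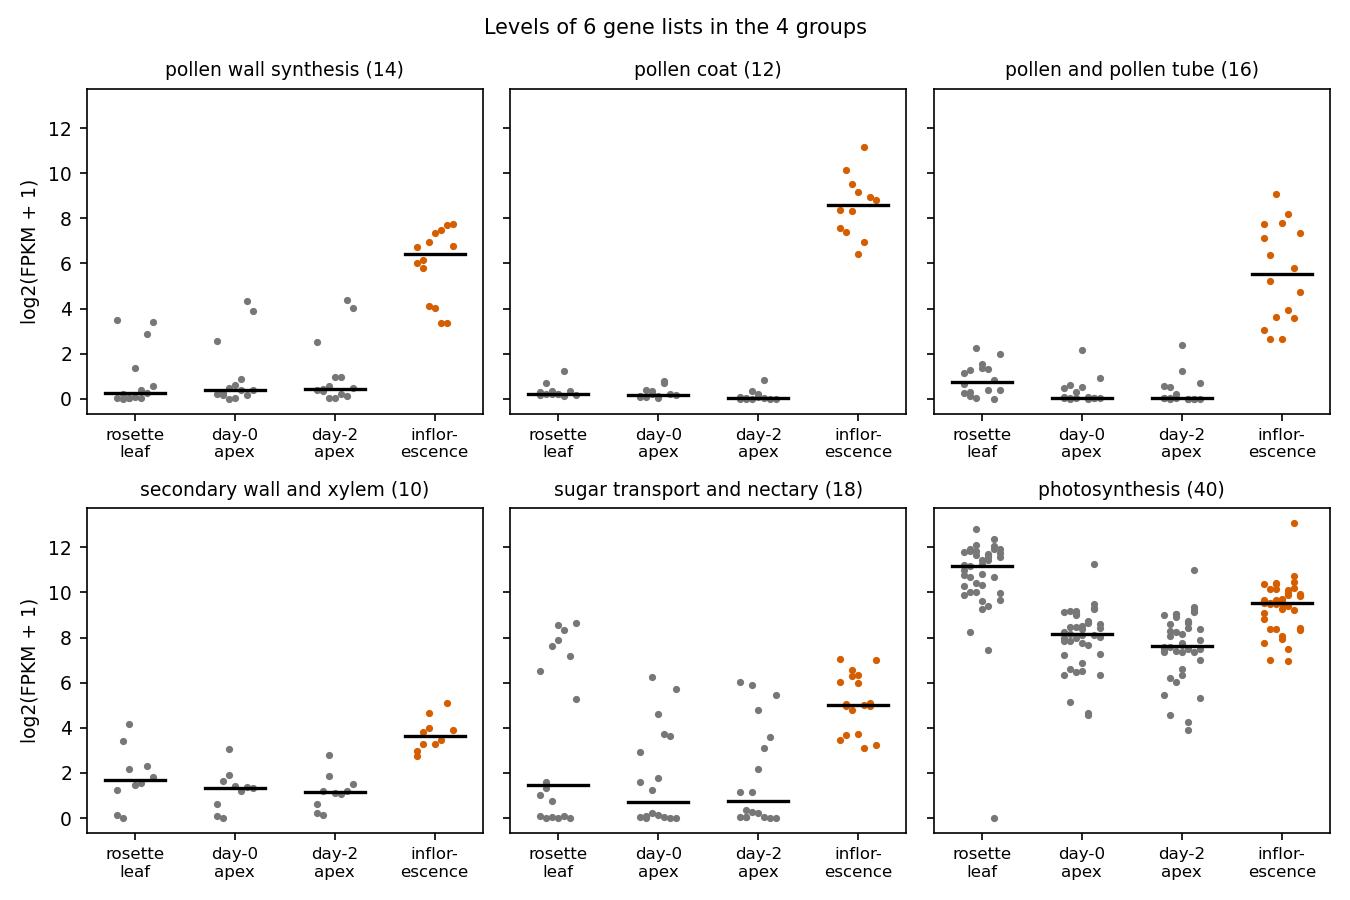
Each point is 1 gene of 6 lists, with its level as log2(FPKM + 1) in the 4 groups, and the black bars are medians over the genes. The medians of the 3 pollen lists lie near zero in leaves and in both apex groups and well above it in inflorescences (orange), whereas photosynthesis genes are highest in leaves. The point at zero in the leaf column of photosynthesis is RBCS1A, listed at 0 there.

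Sugar transport and nectary genes were higher in 17 of 18 cases that met the minimum (94.4%), beside 16.2% of all genes. Their median was 3.44 (2.70 over all 22). Of the 18 genes, 6 reached 5 FPKM at day 0, and the others met the minimum through inflorescences alone. SWEET8, a sugar exporter needed for pollen, was 0.0892 FPKM at day 0, 0.180 FPKM at day 2 and 81.2 FPKM in inflorescences. SWEET1, a glucose carrier, was 6.61, 64.5 and 131 FPKM, and 91.9 FPKM in leaves. CWINV4, a cell wall invertase needed for nectar, was 33.2 FPKM in inflorescences and under 0.01 FPKM in each of the other groups. The hexose carriers STP2 and STP9 of pollen were 65.2 and 94.1 FPKM in inflorescences, against 0.0223 and 1.34 FPKM at day 0. SUC1, a sucrose carrier, was the exception, at 74.7 and 76.8 FPKM.

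Secondary wall genes reached lower levels but the same direction. Of 17 genes 10 met the minimum, with a median of 2.19 (1.85 over all 17). All 10 were higher, beside 16.2% of all genes. Only 1 of the 10 reached 5 FPKM at day 0. The others met the minimum through inflorescences alone and were likely to be called higher by construction. MYB26, needed for wall thickening in the anther before it opens, was listed at 0 at day 0 and was 0.0853 FPKM at day 2 and 13.1 FPKM in inflorescences. NST1, a NAC factor that acts with it, was 0.0685 and 6.86 FPKM in the groups compared. The laccase genes LAC4 and LAC17, which polymerise lignin, were 1.63 and 33.7 FPKM and 1.48 and 14.0 FPKM. NAC012, the fibre counterpart of NST1, was at most 0.0698 FPKM in any group and did not meet the minimum.

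Of 24 cuticle and epidermis genes 11 were higher (45.8%), 1 was lower (4.17%) and 12 were not called, beside 16.2% and 5.13% of all genes. SHN1, an activator of cutin synthesis, was 1.03 FPKM at day 0, 3.67 FPKM at day 2, 85.7 FPKM in inflorescences and 0.593 FPKM in leaves. The cutin synthesis genes GPAT6 and CYP86A4 were 119.5 and 64.3 FPKM in inflorescences, 44.1-fold and 22.7-fold above day 0. ATML1 and PDF2, which give cells their epidermal identity, were not called, at 56.3 and 34.7 FPKM and at 87.1 and 65.8 FPKM. LTPG1, a membrane-anchored lipid transfer protein of wax export, was lower, at 699 and 309 FPKM.

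Photosynthesis genes were higher as a block but by modest amounts. Of 40 nuclear genes 39 were higher (97.5%), beside 16.2% of all genes, and 1 was not called. The differences ran from 0.92 to 2.83, with a median of 1.40. Their FPKM summed to 14305 at day 0, 11965 at day 2, 38061 in inflorescences and 96119 in leaves. LHCA1, a light-harvesting protein of photosystem I, was 251 FPKM at day 0, 162 FPKM at day 2, 747 FPKM in inflorescences and 2361 FPKM in leaves. RCA, which activates Rubisco, was 259, 177, 969 and 3862 FPKM. HCEF1, a chloroplast fructose bisphosphatase, differed most, at 24.3, 18.4, 179.6 and 684 FPKM. PSAF, a photosystem I subunit, was the gene not called, at 626 and 1185 FPKM. For LHCA1, RCA, HCEF1 and PSAF the order of the groups was the same, from day 2 through day 0 and inflorescences to leaves. The apices were dissected to keep leaf and pedicel tissue low and the inflorescences were taken whole. The part of this in the result was not tested. The most abundant inflorescence gene, RBCS1A of the small Rubisco subunit, was 2493 and 8661 FPKM in the groups compared but was listed at 0 in leaves, so its values are uncertain.

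**Figure D4:**
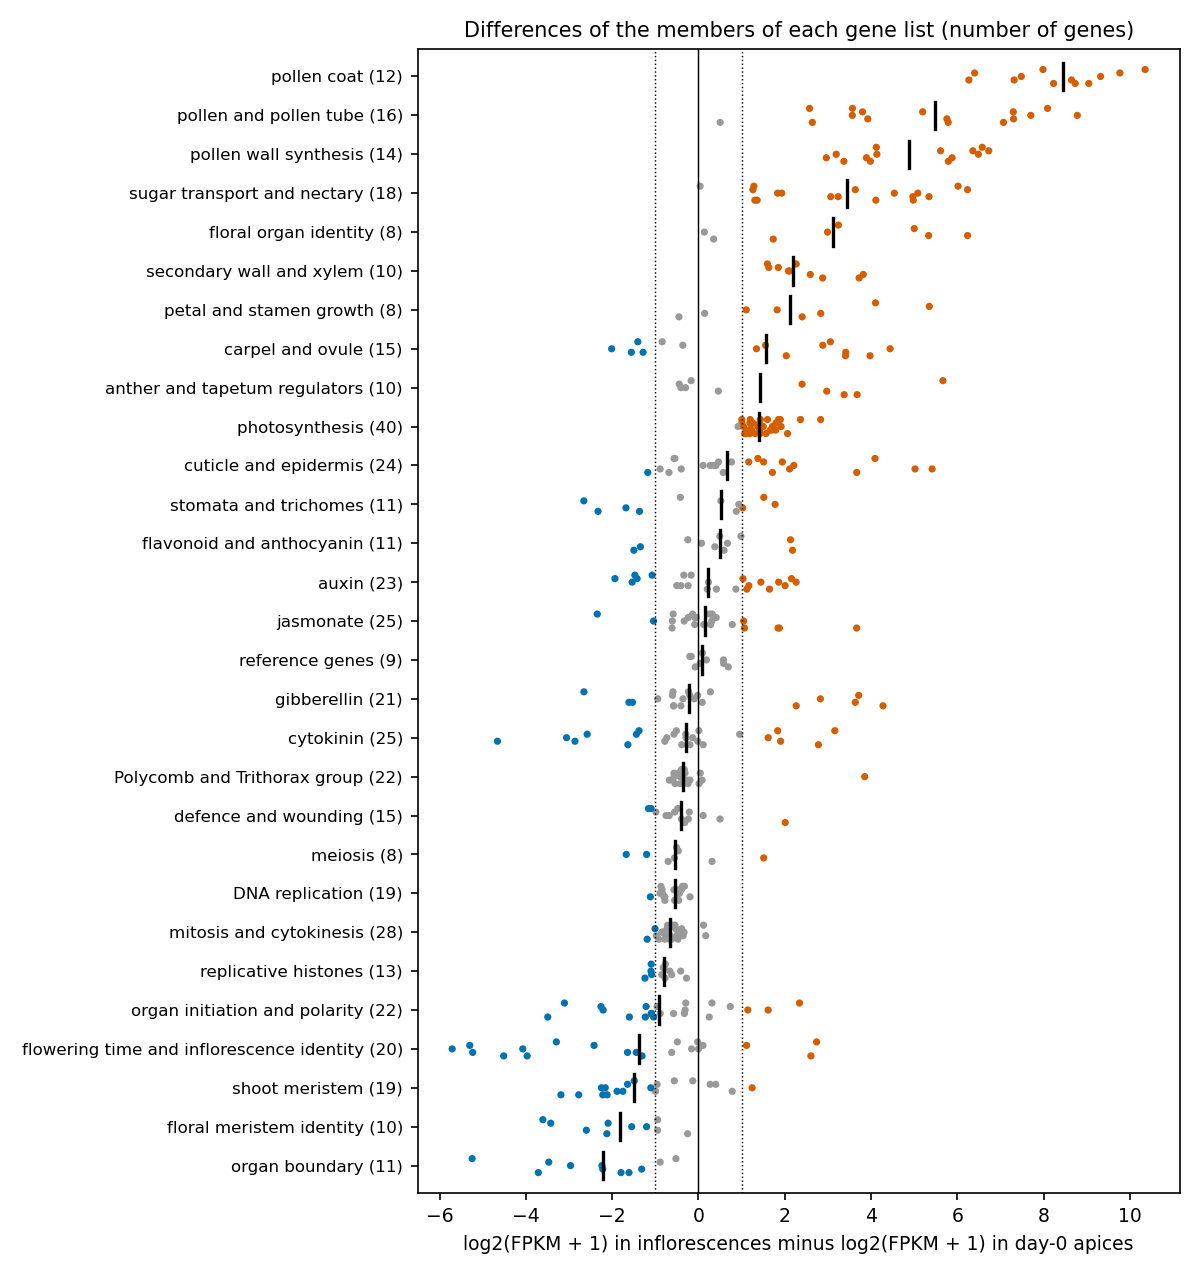
Each point is the log2 difference of 1 gene, inflorescences minus day-0 apices, for the 29 gene lists ordered by their median (black bar), with the number of genes in brackets. Orange points were called higher and blue points lower by the 2-fold rule (dotted lines). Pollen coat genes have the highest median, 8.44, and organ boundary genes the lowest, -2.22, while cell division lists lie as tight groups just left of zero.

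Genes of cell division mostly stayed within the 2-fold rule, with nearly all values lower in inflorescences. None of 19 DNA replication genes was higher and 1 was lower (5.26%), near the 5.13% lower over all genes. Yet all 19 had differences below zero, with a median of -0.55, beside -0.04 over all genes. The replication clamp gene PCNA1 was 84.6 FPKM at day 0, 98.6 FPKM at day 2, 38.6 FPKM in inflorescences and 5.15 FPKM in leaves. MCM5, of the replicative helicase, was 43.9, 47.7, 24.0 and 4.72 FPKM. Of 28 mitosis and cytokinesis genes 26 lay below zero and 2 were called lower (7.14%), with a median of -0.66. CYCB1;1, a mitotic cyclin, was 52.4 FPKM at day 0, 65.6 FPKM at day 2, 22.5 FPKM in inflorescences and 0.577 FPKM in leaves. CDKB2;1, a mitotic kinase, was 106, 113, 58.7 and 3.25 FPKM. For these genes the apex groups were highest, inflorescences were intermediate and leaves were lowest. All 13 replicative histone genes lay below zero and 4 were called lower (30.8%), with a median of -0.80. After the upper-quartile rescaling 1 histone gene, 1 mitosis gene and no DNA replication gene were called lower. Histone genes share nearly identical sequence, so values of single copies are uncertain. Of 304 genes named as ribosomal proteins 239 lay below zero, with a median of -0.43. The few called were mostly higher, with 17 higher (5.59%) and 4 lower (1.32%), beside 16.2% and 5.13% of all genes.

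Meiosis genes did not move as a group. Of 20 genes 8 met the minimum, 1 was higher, 2 were lower and 5 were not called. DMC1, the recombinase specific to meiosis, was 6.40 FPKM at day 0, 6.90 FPKM at day 2 and 0.929 FPKM in leaves, and it was 3.14-fold higher in inflorescences than at day 0. PHS1, which acts in chromosome pairing, was 6.49 and 1.35 FPKM in the groups compared. SPO11-1, which makes the breaks that start recombination, was under 1 FPKM in all groups.

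Hormone genes were called in both directions, with medians from -0.29 to 0.23. In the cytokinin pathway 25 of 33 genes met the minimum, 5 were higher (20.0%) and 7 were lower (28.0%). Over all genes 16.2% were higher and 5.13% were lower. Of the LOG genes, whose enzymes release active cytokinin, LOG4, LOG5 and LOG7 were lower, and LOG1 and LOG8 were not called. LOG5 was 191 FPKM at day 0, 458 FPKM at day 2, 22.1 FPKM in inflorescences and 12.4 FPKM in leaves, and LOG4 was 32.0, 29.4, 3.54 and 0.749 FPKM. AHP6, a pseudo-phosphotransfer protein that inhibits cytokinin signalling next to young organs, had levels of 1.26 FPKM in inflorescences, 56.1 FPKM at day 0 and 84.7 FPKM at day 2, and it was listed at 0 in leaves. Genes of cytokinin breakdown were called in both directions. CKX3 was 2.11 and 10.7 FPKM in the groups compared, CKX6 was 18.1 and 6.06 FPKM, and CKX2 was listed at 0 in both apex groups and was 5.88 FPKM in inflorescences. Of the response regulators that damp the signal, ARR7 was 94.3 FPKM at day 0 and 29.7 FPKM in inflorescences, whereas ARR16 was 2.98 and 34.6 FPKM with 99.3 FPKM in leaves.

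In the gibberellin pathway 21 of 29 genes met the minimum, 5 were higher (23.8%), 3 were lower (14.3%) and 13 were not called. Over all genes the shares were 16.2% and 5.13%. The DELLA repressor genes RGL1 and RGL2 were higher, at 59.5 FPKM against 11.6 FPKM and at 48.4 FPKM against 2.97 FPKM. The DELLA genes GAI, RGA and RGL3 were not called, with the lower value in inflorescences. GAI was 31.3 FPKM at day 0 and 27.1 FPKM in inflorescences, RGA was 70.5 and 59.9 FPKM, and RGL3 was 6.89 and 3.11 FPKM. The GASA genes encode small peptides regulated by gibberellin. GASA6 was 6.83 FPKM at day 0, 9.13 FPKM at day 2, 151 FPKM in inflorescences and 239.6 FPKM in leaves, and GASA1 was 9.63, 10.6, 139 and 313 FPKM. GASA4 was not called, at 572 FPKM at day 0 and 694 FPKM in inflorescences. GA2OX4, which inactivates gibberellin, was lower, at 13.9 FPKM at day 0 and 1.36 FPKM in inflorescences, whereas its family member GA2OX1 was 0.0610 and 6.53 FPKM.

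In the auxin pathway 23 of 30 genes met the minimum, 9 were higher (39.1%), 5 were lower (21.7%) and 9 were not called. Over all genes the shares were 16.2% and 5.13%. Genes that act at organ initiation were lower. PID, a kinase that steers auxin transport, was 87.3 FPKM at day 0, 91.7 FPKM at day 2, 22.1 FPKM in inflorescences and 6.74 FPKM in leaves. MP, the response factor that starts flowers, was 136, 202, 50.1 and 3.64 FPKM. Several auxin carriers were higher: PIN4 was 1.74 FPKM at day 0 and 10.0 FPKM in inflorescences, PIN7 was 11.5 and 33.2 FPKM, and the influx carrier LAX3 was 1.06 and 8.90 FPKM. The auxin-induced repressor genes IAA19 and IAA1 were 5.28-fold and 3.47-fold higher in inflorescences.

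Of the 25 jasmonate genes that met the minimum 18 were not called, 5 were higher (20.0%) and 2 were lower (8.00%). These shares were near the 16.2% higher and 5.13% lower over all genes. LOX2, which starts jasmonate synthesis in chloroplasts, was 26.4 FPKM at day 0, 39.2 FPKM at day 2, 347 FPKM in inflorescences and 1045 FPKM in leaves. JAR1, which makes the active amino acid conjugate, was 16.2, 16.4, 60.9 and 54.1 FPKM. The storage protein genes VSP1 and VSP2, both induced by jasmonate, differed from each other. VSP2 was 1143 FPKM at day 0 and 224 FPKM in inflorescences, whereas VSP1 was 1010.2 and 1345 FPKM and not called. DAD1, the lipase of jasmonate synthesis in stamen filaments, was at most 0.350 FPKM in any group.

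Of 11 flavonoid genes that met the minimum 2 were higher, 2 were lower and 7 were not called. Each direction held 18.2% of them, beside 16.2% of all genes higher and 5.13% lower. MYB111, an activator of flavonol synthesis, was 5.71 FPKM at day 0, 12.1 FPKM at day 2 and 29.4 FPKM in inflorescences, and TT7, a hydroxylase of the pathway, was 13.0, 22.5 and 60.7 FPKM. The late anthocyanin genes DFR and LDOX were lower, at 7.35 and 1.96 FPKM and at 8.19 and 2.62 FPKM, and stood above 90 FPKM in leaves. Chalcone synthase (TT4), the entry enzyme, was not called, at 392 and 592 FPKM. The flavonol synthase FLS1, at 113 and 224 FPKM, and MYB12, another activator of flavonol synthesis, at 5.07 and 7.56 FPKM, were not called either.

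Of 11 stomata and trichome genes that met the minimum 3 were higher (27.3%) and 4 were lower (36.4%), beside 16.2% and 5.13% of all genes. The stomatal genes FAMA and STOMAGEN were higher, STOMAGEN at 48.9 FPKM against 16.5 FPKM. SPCH, TMM and EPF2, also stomatal genes, were not called. Of the trichome regulators CPC, which represses hair fate, was 25.2 FPKM at day 0 and 3.17 FPKM in inflorescences, whereas TRY, of the same family, was 3.89 and 15.8 FPKM. EGL3, a bHLH activator, was 32.1 and 9.32 FPKM. GL2 and TTG2 were lower as well, and TTG1 was not called. Of 15 defence and wounding genes 12 were not called, 1 was higher (6.67%) and 2 were lower (13.3%), beside 16.2% and 5.13% of all genes. PR5, a defence protein gene, was 1.87 and 10.6 FPKM in the groups compared with 872 FPKM in leaves, and TCH2, a touch-induced calmodulin relative, was 363 and 169 FPKM.

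Polycomb and Trithorax group genes, which keep other genes silent or active, hardly differed. Of 22 genes 21 were not called and 1 was higher (4.55%), beside 16.2% higher and 5.13% lower over all genes. The histone methyltransferase gene CLF was 17.9 FPKM at day 0 and 13.9 FPKM in inflorescences, and its relative SWN was 26.9 and 23.3 FPKM. The exception was ULT2, of the Trithorax side, at 0.0781 FPKM at day 0, 0.165 FPKM at day 2, 14.6 FPKM in inflorescences and 0.101 FPKM in leaves. Its close relative ULT1, which limits meristem size, was 41.2, 40.7, 25.4 and 2.37 FPKM.

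Ranked over all nuclear protein-coding genes above 0 in both columns, the highest differences belonged to genes of the pollen coat, tapetum and pollen. The highest was AT1G66850, which encodes a lipid-transfer protein, at 0.477 FPKM at day 0, 0.108 FPKM at day 2, 2009.9 FPKM in inflorescences and 1.17 FPKM in leaves. TSM1, a methyltransferase of the tapetum, was 0.473 and 454 FPKM in the groups compared, PGA4, a polygalacturonase, was 0.0810 and 349.8 FPKM, and sks13, of the SKU5 family, was 0.187 and 352 FPKM. Of the 15 highest genes, none exceeded 1 FPKM in either apex group, and none exceeded 5 FPKM in leaves.

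The lowest difference, -6.39, belonged to FTM1, a fatty acid desaturase known from the floral transition of the meristem, at 317 FPKM at day 0, 125 FPKM at day 2, 2.80 FPKM in inflorescences and 0.0647 FPKM in leaves. LBD19, of the LOB-domain family, was 48.9, 25.5, 0.505 and 0.0667 FPKM. The homeobox genes HB53 and HB21, known for repressing bud growth, were 43.4 and 74.3 FPKM at day 0, 30.1 and 74.7 FPKM at day 2, and 0.568 and 3.41 FPKM in inflorescences. Most of the 15 lowest genes were also above 10 FPKM at day 2. The exceptions were LSH1 and AT1G12805, at 7.58 and 8.93 FPKM.

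The levels in the remaining groups were set beside the calls. Of the 2796 higher genes 1522 stood at 5 FPKM or more in leaves (54.4%), against 80.9% of all 17247 genes. A further 914 were under 1 FPKM there (32.7%), against 8.46% of all genes. The share at 5 FPKM or more in leaves was 82.5% for differences of 1 to 2, 41.3% for 2 to 4, 21.1% for 4 to 6 and 7.75% above 6. The smaller differences thus belonged mostly to genes also present in leaves, and the larger ones mostly to genes low there. At day 2, 85.7% of all genes stood at 5 FPKM or more and 7.04% were under 1 FPKM. Of the 884 lower genes 813 stood at 5 FPKM or more at day 2 (92.0%), near that share, and 21 were under 1 FPKM (2.38%). Of the higher genes 936 were at 5 FPKM or more at day 2 (33.5%), and 1179 were under 1 FPKM (42.2%).

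**Figure D5:**
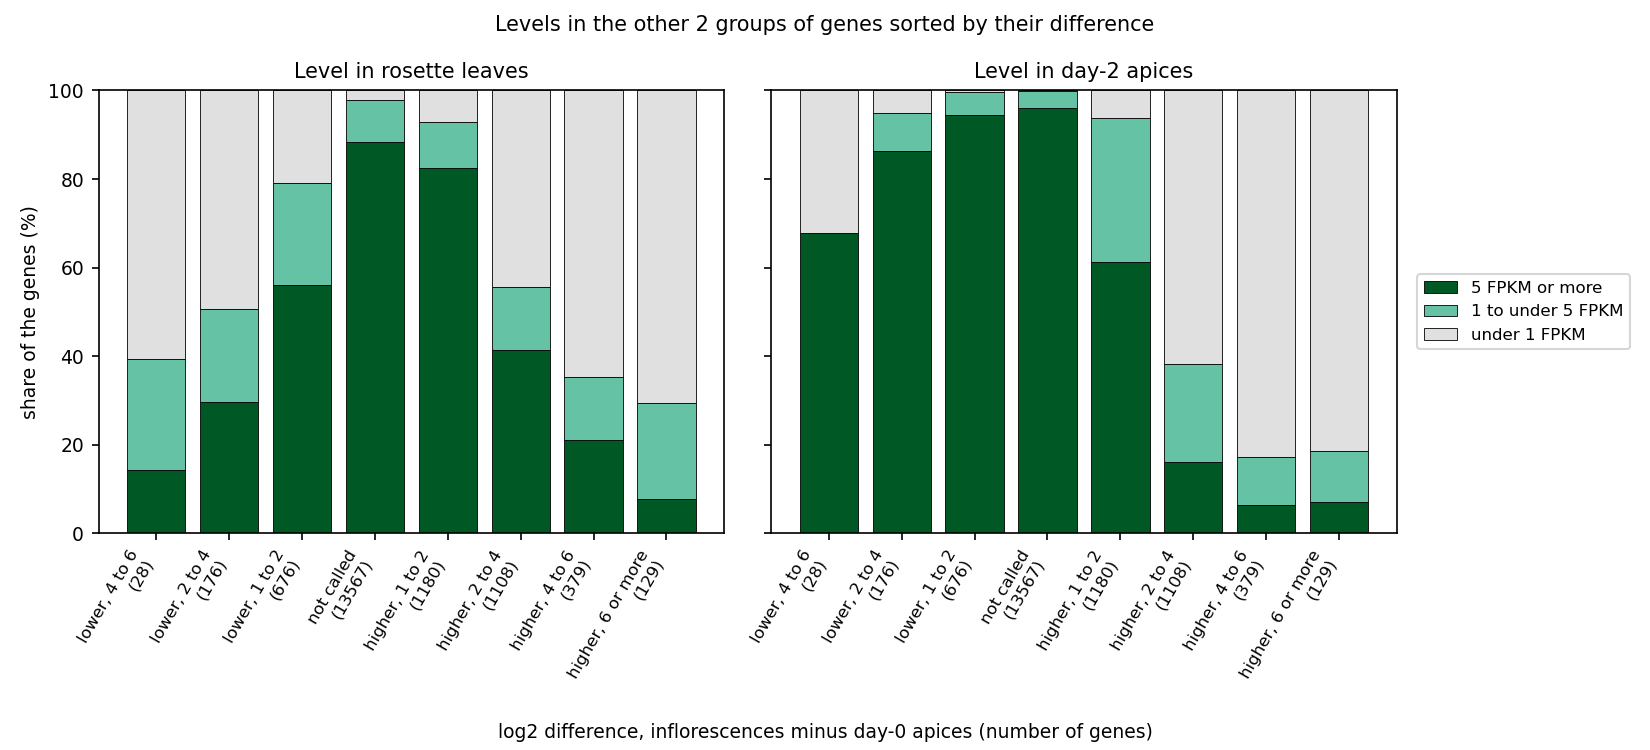
Share of genes (y axis, percent) in 3 level classes in rosette leaves (left) and day-2 apices (right), for genes sorted by their log2 difference between inflorescences and day-0 apices (x axis, number of genes in brackets). In leaves the share at 5 FPKM or more is 82.5% for genes higher by 1 to 2 and 7.75% for those higher by 6 or more. The 4 genes lower by 6 or more are not drawn.

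Near the limits the calls rested on small differences. TBL11 lay within rounding of the minimum at day 0, with 4.91 FPKM in inflorescences, and SULTR3;2 did so in inflorescences. AT3G53810 and RALFL30, the latter listed at 0 at day 0, fell short of it in inflorescences by as little. At the 2-fold rule TPPD, at 6.84 and 2.92 FPKM, was just inside, and PARP2, at 19.8 and 9.42 FPKM, was just outside.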

How the data were processed

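RNA was extracted from 12 samples, 3 per group, and sequenced from stranded poly(A) libraries, per the labels' protocols. Per the submitters' processing notes, the reads were handled with Cufflinks 2.1.1, TopHat2 2.0.10, Bowtie2 2.1.0 and CASAVA 1.8.2 on genome build TAIR10. The authors deposited 1 merged value per gene and group. The FPKM unit was inferred from the deposited values and from the use of Cufflinks, because the header names no unit. How libraries were merged or scaled, with which annotation and options, is not given in the sources used here.

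Rows of a repeated identifier (567 identifiers) were summed. Genes of at least 5 FPKM in either column were kept, a pseudocount of 1 FPKM was added, and differences were called at 2-fold. Names, gene classes, products and neighbour order came from the RefSeq annotation of a related assembly, in which 17155 of the 17247 genes were found. No coordinates or sequences were used. Of 593 names in 29 hand-written lists, 584 were matched to a gene of the table and 487 of those met the minimum. The genes, lists and rules were chosen with earlier results of these data known.

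Each list could give its first 4 genes and up to 6 per call, largest differences first. Also named were the 15 highest and 15 lowest nuclear protein-coding genes, the 10 most abundant genes of each column, the 5 highest genes listed at 0 in a column, and genes next to the limits. RBCS1A was named as 1 of the most abundant genes. BAM1, GAI, RGA and GASA4, outside these rules, were named beside their relatives. A search of promoters for motifs was not run, and some results for single genes are not reported here. Alternatives were other pseudocounts, minimums and limits, 2 rescalings, gene subsets, and the highest row of a repeated identifier. Python 3.11.15, numpy 2.4.6, pandas 2.3.3 and matplotlib 3.10.9 were used.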

Additional observations from a re-analysis of the deposited data

How the results depend on the processing

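No paired analysis was possible because the deposited table holds 1 merged value per group, and for the same reason no library could be left out. The count of higher genes (2796) stayed within 1.5 times under 8 of 10 alternatives and the count of lower genes (884) under 8 of 10. With a minimum of 1 FPKM 4357 genes were higher, and with a 4-fold rule 1616. With a pseudocount of 5 FPKM 577 genes were lower, and with a 4-fold rule 208. These limits change by construction what is counted. The median-ratio rescaling shifted all differences by 0.06. Medians of 28 of the 29 lists kept their direction and their side of the 2-fold rule under every alternative run. The flowering time list had a median of -0.49 without a minimum, as its 5 low genes then entered. Of 356 genes that could be named, 8 passed the rule only with a pseudocount of 0.1 FPKM, and with the upper-quartile rescaling 8 passed and 8 no longer did; no called gene changed direction.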

Other observations

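Several protein families named by the annotation, among those with at least 30 genes compared, had many higher genes, against 16.2% over all genes. They were picked after their values were seen and overlap the lists above. Of 45 lipid-transfer and seed storage albumin genes 28 were higher (62.2%) and 6 were lower. Within this family AT5G62080 was 0.661 FPKM at day 0 and 372 FPKM in inflorescences, whereas AT4G22490 was 139 and 3.20 FPKM. Of 48 pectin lyase-like genes, whose products loosen pectin in cell walls, 25 were higher (52.1%) and 2 were lower. AT3G07850 was 0.0949 and 325 FPKM, and AT3G53190, the lowest, was 139.6 and 59.6 FPKM. Of 41 GDSL lipase genes 23 were higher and none was lower, and of 30 SAUR genes, small auxin-induced genes of cell expansion, 16 were higher and 2 were lower. AT5G33370, a GDSL lipase gene, differed from the pollen genes in its day-2 level, at 5.95 FPKM at day 0, 34.0 FPKM at day 2 and 653 FPKM in inflorescences. Pentatricopeptide repeat genes, which act on organelle RNA, gave 1 higher and no lower gene of 67.

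Some of the genes with differences of at least 4 were neighbours in the annotation. Among protein-coding genes there were 20 runs of 2 such genes, 4 runs of 3 and 2 runs of 4. A run of 4 held GRP14, GRP18, GRP17 and GRP16, from 85.1 to 738 FPKM in inflorescences, and GRP19 and GRP20 followed after 1 other gene. The other run of 4 held the lipase genes EXL4, AT1G75920 and EXL6 and the glycosyl hydrolase gene ATA27, from 56.5 to 581 FPKM. A run of 3 held the pectin methylesterase genes VGDH1, VGD1 and AT2G47050, at 55.4, 291 and 165 FPKM. Another run of 3 was not low in leaves: AT1G24388, AT1G24390 and LHT2, an amino acid transporter, were at most 0.144 FPKM in both apex groups, 100.0, 63.2 and 36.8 FPKM in inflorescences and 47.6, 38.2 and 8.44 FPKM in leaves. Neighbouring copies can share reads, and their part in these values was not tested.

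At day 0 236 genes were listed at 0, of which 195 were protein coding, and in inflorescences 29 were, of which 7 were protein coding. RALFL8, a signalling peptide gene, was listed at 0 in both apex groups and was 181 FPKM in inflorescences. AT4G04078 and AT1G23650, at 744 and 285 FPKM in inflorescences and 0 in the other groups, have annotated transcripts of 108 and 87 nucleotides, and FPKM of such short transcripts is uncertain. In the other direction AT3G25719 was 167 FPKM at day 0, 168 FPKM at day 2 and listed at 0 in inflorescences. CAB1, a light-harvesting gene, was 1556 FPKM at day 0 and 4113 FPKM in inflorescences but was listed at 0 in leaves.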
